A study of Mus musculus with 6 samples.

Results

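The 10 receptor tyrosine kinases for growth factors Egfr, Erbb2, Erbb3, Met, Igf1r, Pdgfra, Pdgfrb, Fgfr1, Fgfr2 and Kdr were followed in RNA-seq of 3 lines of CT26, a colon carcinoma cell line of BALB/c mice. They were matched by symbol to the Ensembl identifiers of the count tables and are 10 of 53801 genes listed. The series has 6 libraries, 2 (A and B) for each line. The parental line was CT26 in bulk, recovered from tumours grown in mice, so it is a mixture of clones that had engrafted. B04 and B64 were each expanded from a single cell of such tumours and carry different barcodes, and both are labelled as resistant. In the study this means resistance to immune checkpoint blockade (ICB), antibodies against PD-1 and CTLA-4. All 3 lines, the parental one included, came from CT26 cells that carried a barcode vector and had been selected with puromycin. The labels list no treatment for any library. Each resistant line is 1 clone, so a difference from the parental line may belong to that clone alone and is not a measure of resistance. The sample titles speak of tumours, whereas the growth protocol and the study's methods describe cells grown in RPMI medium.

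Receptor tyrosine kinases span the cell membrane. A growth factor bound outside brings 2 receptors together, their kinase domains phosphorylate each other, and adaptors that dock on the phosphates pass the signal to RAS and ERK and to PI3K and AKT. In the gut epithelium, signals of the EGF family, of HGF and of insulin-like growth factors drive growth and repair, PDGF receptors are best known from mesenchymal cells and pericytes, and Kdr from endothelium. Cancer cells often change which of these receptors they carry.

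The libraries held 19409204 to 23472012 expected counts, the number of reads RSEM assigned to genes, and 10970 to 11208 genes reached 1 TPM (RSEM's transcript level, scaled for length and for the library's total). Counts were divided by a size factor of 0.883 to 1.1 per library, and the result is called the normalized count. Libraries of the same line differed more than counting error alone gives (chi-square per degree of freedom 5.09 to 6.81), so no library was a copy of another. The fragments were longer in both parental libraries and B04 A (271.8 to 277.3 bases, as the gap between length and effective length) than in B04 B and both B64 libraries (220.8 to 246.2 bases). For B64 against parental, the line and the fragment length cannot be told apart except through the B04 libraries. The labels call the libraries only A and B, so every adjusted p measures the spread between these samples, which may be technical. Several defining epithelial markers, among them Epcam, Cdh1 and Krt19, had at most 3 counts in every library. The summed TPM of the 10 epithelial markers ran from 22.38 to 24.15 in parental, from 24.5 to 25.5 in B04 and from 46.1 to 48.2 in B64, where the keratin genes Krt20 (log2 fold change 1.40, SE 0.14, adjusted p = 5.11e-20) and Krt18 (0.73, SE 0.16, adjusted p = 0.000157) were higher than in parental. The intestinal factor Cdx2, of the same list and named after its values were seen, went the other way, with 33 and 22 normalized counts in parental and 0 in all 4 clone libraries, a difference that was not called (adjusted p = 0.304 in B04 and 0.375 in B64). The 13 leukocyte markers summed to 10.6 to 10.97, 10.5 to 12.2 and 36.7 to 40.3 TPM, of which Cd68 gave most (mean 37.8 TPM in B64), while Ptprc, Cd3e and Itgam had at most 3 counts everywhere.

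Detection split the 10 receptors. Egfr, Fgfr2 and Kdr had at most 3 expected counts in every library, the floor used here, and the other 7 were detected in all 6. Egfr, the receptor for EGF, amphiregulin and epiregulin, had 0 and 1 counts in parental, 2 and 1 in B04 and 1 and 3 in B64. Fgfr2, which binds FGF7 and FGF10 in epithelial cells, had 0 and 0, 1 and 0, and 0 and 2 counts. Kdr, the main VEGF receptor of endothelial cells, had 0 and 1 counts in each line. These levels are too low to compare between lines, and no fold is given for the 3. Among the 10 endothelial markers, Pecam1, Cdh5, Tek and 4 others were also at or under the floor, and no library exceeded 1.04 TPM in the sum over the list.

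Per length, Met was the most abundant receptor in every line, with mean levels of 28.5 TPM in parental, 37.8 in B04 and 35.9 in B64. In parental it was followed by Fgfr1 at 9.42 TPM, Erbb2 at 7.52, Pdgfrb at 6.78, Igf1r at 6.69, Pdgfra at 3.05 and Erbb3 at 0.32 TPM. Pdgfrb (6.84 and 6.71 TPM) and Igf1r (7.05 and 6.33 TPM) were not separated by their libraries there. In B04 Pdgfrb came second at 10.1 TPM, ahead of Erbb2 at 8.34, Igf1r at 7.51, Fgfr1 at 3.72, Pdgfra at 1.98 and Erbb3 at 0.66 TPM. In B64 the order after Met was Erbb2 at 7.0 TPM, Pdgfrb at 6.51, Igf1r at 4.81, Fgfr1 at 2.64, Pdgfra at 2.36 and Erbb3 at 0.51 TPM, and the libraries of Fgfr1 (2.42 and 2.86 TPM) and Pdgfra (1.63 and 3.09 TPM) overlapped. Fgfr1 thus went from the second place in parental to the fifth in both clones. The 10 receptors together made up 59.2 to 71.1 TPM per library.

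The start regions of 3 of the receptors are printed to set a detected gene beside one at the floor. A promoter of 300 bases, 250 before and 50 after the RefSeq start in build GRCm38.p6, was found by symbol for 7 of the 10. The sequence is that of the reference mouse strain, not of CT26. The letters GGGCGG, and CCGCCC for the other strand, form the GC box, a promoter motif bound by SP1, and are in capitals. In the order Igf1r (chr7:67952007-67952306, plus strand), detected in all libraries, Pdgfra (chr5:75152001-75152300, plus strand), lower in B04, and Egfr (chr11:16751953-16752252, plus strand), at the floor, they read 5′ to 3′:
Igf1r: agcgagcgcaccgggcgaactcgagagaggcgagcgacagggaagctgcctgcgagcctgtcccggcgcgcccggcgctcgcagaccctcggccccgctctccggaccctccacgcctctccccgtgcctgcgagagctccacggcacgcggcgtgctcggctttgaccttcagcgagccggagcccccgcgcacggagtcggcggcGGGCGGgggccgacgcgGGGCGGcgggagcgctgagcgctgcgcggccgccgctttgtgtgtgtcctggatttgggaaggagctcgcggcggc
Pdgfra: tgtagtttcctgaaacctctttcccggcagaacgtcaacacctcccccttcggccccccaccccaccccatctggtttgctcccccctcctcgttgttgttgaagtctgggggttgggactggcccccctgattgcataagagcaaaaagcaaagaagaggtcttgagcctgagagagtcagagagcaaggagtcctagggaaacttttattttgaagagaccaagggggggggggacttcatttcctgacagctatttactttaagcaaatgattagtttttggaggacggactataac
Egfr: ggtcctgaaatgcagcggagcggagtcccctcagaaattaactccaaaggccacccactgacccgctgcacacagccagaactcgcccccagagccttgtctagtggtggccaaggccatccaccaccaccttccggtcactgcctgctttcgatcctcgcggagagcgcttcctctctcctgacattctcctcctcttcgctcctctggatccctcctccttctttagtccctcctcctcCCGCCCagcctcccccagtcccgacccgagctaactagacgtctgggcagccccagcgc

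The Igf1r window holds 2 GC boxes, 48 CG dinucleotides and 76.0% G or C, and 98.8% of all promoters hold fewer CG. The Pdgfra window holds no GC box, 5 CG and 51.0% G or C, and the Egfr window 1 GC box, 15 CG and 62.3%. Over all 32851 promoters of this length, 35.7% hold a GC box, with medians of 7 CG and 52.7% G or C. The windows of Met (3 GC boxes, 34 CG), Kdr (2 and 19), Erbb2 (0 and 21) and Fgfr2 (0 and 4) show that neither count separates the detected receptors from those at the floor.

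Of the 7 detected receptors, 3 passed the test in B04 against parental (adjusted p under 0.05 over all genes, DESeq2), where 24.1% of 13218 genes did. Pdgfrb was higher (1 of 7, against 11.2% of genes), Pdgfra and Fgfr1 were lower (2 of 7, against 12.9%), and the median log2 fold change of the 7 was 0.09. In B64 against parental 3 passed as well, with 16.3% of genes called. Met was higher (8.87% of genes were), Igf1r and Fgfr1 were lower (7.45% of genes), and the median was -0.10. With the fragment class as a term, 340 genes in place of 2157 and Fgfr1 alone of the receptors were called in that comparison. Between the clones, B64 against B04, 4 passed (24.3% of 12855 genes): Pdgfra was higher in B64 (13.1% of genes were), while Igf1r, Pdgfrb and Fgfr1 were lower (11.1%), and the median was -0.33. The median over all genes tested was 0 in each comparison. The first 2 comparisons share the parental libraries, so their values are given side by side and not as independent evidence. The libraries of the lines compared did not overlap for 6, 6 and 7 of the 7 receptors, and for 65%, 61.4% and 67.1% of genes tested.

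**Figure D1:**
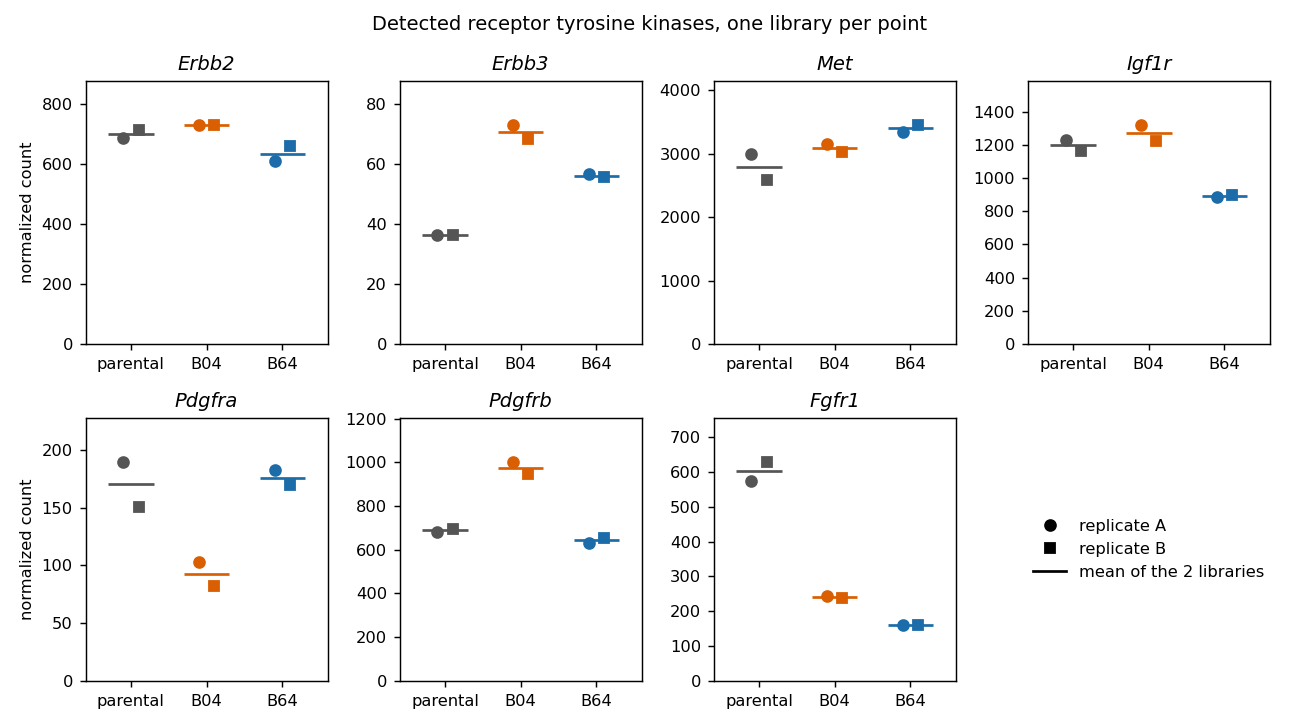
Normalized count (y axis, from 0, a scale of its own in each panel) of the 7 detected receptors by line (x axis), with a point for each library (circle A, square B) and a bar for the mean of the 2. Fgfr1 steps down from parental (574.3 and 629.4) to B04 (242.6 and 239.2) and B64 (159.7 and 160.9), Pdgfrb is high in B04 alone of the 3 lines, and Igf1r is low in B64.

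Fgfr1, the FGF receptor that transduces FGF2 and many other FGFs in mesenchymal cells, differed most. It lies at chr8:25513654-25575718 on the plus strand (GRCm38, GENCODE M21, as for the other genes here). Its normalized counts were 574.3 and 629.4 in parental, 242.6 and 239.2 in B04 and 159.7 and 160.9 in B64. The 3 lines did not overlap, and both clones lay far under the parental line. Fgfr1 was 2.5-fold lower in B04 (log2 fold change -1.32, SE 0.16, adjusted p = 5.98e-14). It was 3.76-fold lower in B64 (-1.91, SE 0.17, adjusted p = 6.56e-26). Both calls held under every alternative processing tried, 18 for B04 (-1.42 to -1.14) and 17 for B64 (-1.98 to -1.52). The further step from B04 to B64 (-0.59, SE 0.18, adjusted p = 0.00679) passed in only 9 of 18, and was lost on leaving out B04 A, B04 B, B64 A or B64 B (adjusted p = 0.0656 to 0.0984) and among the libraries of short fragments, where B04 B stood alone (0.423). In bulk RNA, fewer cells that carry a receptor and less RNA in each cannot be told apart. Of the 10 nearest genes on either side whose mean normalized count reached 50, 3 were higher and 1 was lower in B04 and 1 was higher in B64, with medians of -0.05 and 0.01. The genes most like Fgfr1 over the 6 libraries, of 10474 ranked by the root mean square difference of centred log2 values, were Plpp6 (0.123) and Morc4 (0.142). Plpp6 had 141 and 127 normalized counts in parental, 57 and 56 in B04 and 39 and 32 in B64.

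The PDGF receptors lay on opposite sides of parental in B04, but the fall of Pdgfra was lost under several alternatives. Pdgfrb (chr18:61045150-61085061, plus strand), which binds PDGF-BB, had 680.2 and 696.8 normalized counts in parental, 1003.3 and 948.7 in B04 and 632.0 and 652.9 in B64. It was 1.42-fold higher in B04 than in parental (log2 fold change 0.50, SE 0.11, adjusted p = 8.64e-05). B64 lay 1.52-fold under B04 (-0.60, SE 0.11, adjusted p = 1.82e-06) and close to parental (-0.10, 95% interval -0.33 to 0.13, adjusted p = 0.678). The 2 calls held under each of the 18 alternatives. Of the 10 nearest genes, 2 were higher and 3 lower in B04 (11.2% and 12.9% of all genes were) and 1 was lower in B64. Their medians were -0.15 in B04 and 0 in B64 against parental.

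Pdgfra (chr5:75152292-75198215, plus strand), which binds PDGF-AA and PDGF-CC, had 189.8 and 150.6 normalized counts in parental, 103.1 and 82.4 in B04 and 182.4 and 169.3 in B64. Both B04 libraries were under the other 4, and those of B64 lay within the parental pair. The level in B04 was 1.83-fold lower than in parental (log2 fold change -0.87, SE 0.26, adjusted p = 0.00517), and B64 was 1.89-fold above B04 (0.92, SE 0.26, adjusted p = 0.00303). B64 against parental gave 0.05 (95% interval -0.45 to 0.54, adjusted p = 0.949). The call in B04 was lost without parental A (-0.70, adjusted p = 0.211) and without B04 B (-0.72, 0.16), with the fragment class as a term (-0.72, 0.217) and among the libraries of long fragments, where B04 A stood alone (-0.72, 0.323). It was lost as well with limma on log2(TPM + 1) (-0.44, adjusted p = 0.273) and on log2(TPM + 0.1) (-0.59, 0.289). The call between the clones was lost without B04 B (0.114), B64 A (0.102) or B64 B (0.0525), among the libraries of short fragments (1.09, adjusted p = 0.0891) and with both limma fits (0.14 and 0.18, 0.749 and 0.776). The effective length RSEM gave Pdgfra differed widely between libraries, from 2239.8 bases in parental B to 5944.5 in B64 A. Both B64 libraries had 161 expected counts, but their levels were 1.63 and 3.09 TPM. With that length as an offset, B64 against B04 was 0.27 (adjusted p = 0.688) and B04 against parental -0.70 (0.166). Kdm7a (0.08), after Gm4070 (0.045), had the pattern most like that of Pdgfra, with 540 and 482 normalized counts in parental, 332 and 245 in B04 and 582 and 569 in B64. Of the 10 genes nearest Pdgfra, 3 were lower and none higher in B04 (12.9% and 11.2% of all genes were, median -0.13). None was called in B64 against parental (median -0.04). Against B04, 3 were higher and none lower in B64 (13.1% and 11.1% of all genes were, median -0.03). The 13 fibroblast and pericyte markers summed to 34.4 to 35.3 TPM in parental, 32.9 to 33.3 in B04 and 29.68 to 34.95 in B64, and Lum, Fap, Rgs5, Abcc9, Kcnj8 and Thy1 were at or under the floor. Of the 6 tested against parental, 1 was called lower in each clone and none higher, and the members moved in different ways. Col3a1, a fibrillar collagen, had 830 and 762 normalized counts in parental, 928 and 836 in B04 and 43 and 28 in B64. Dcn (decorin), named after its values were seen, had 24 and 23 in parental, 1 and 0 in B04 and 5 and 3 in B64, so it was low in B04 as Pdgfra was (adjusted p = 0.00502 in DESeq2, and 0.0618 in B64). Pdpn (podoplanin) had 737 and 753 in parental, 656 and 588 in B04 and 933 and 815 in B64, and like Pdgfra it was higher in B64 than in B04 (log2 fold change 0.49, SE 0.12, adjusted p = 0.00062). Their part in the PDGF receptor levels was not tested.

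Igf1r, the receptor for both insulin-like growth factors (chr7:67952827-68233668, plus strand), was low in B64 only among these lines. Its normalized counts were 1230.6 and 1164.4 in parental, 1319.7 and 1222.5 in B04 and 883.5 and 898.9 in B64. Parental and B04 overlapped (log2 fold change 0.09, 95% interval -0.11 to 0.28, adjusted p = 0.618). B64 was 1.34-fold under parental (-0.43, SE 0.10, adjusted p = 0.000365) and 1.43-fold under B04 (-0.51, SE 0.10, adjusted p = 4.76e-06). The first passed in 13 of 17 alternatives. It was lost without parental A (-0.39), with the fragment class as a term (-0.32, adjusted p = 0.835 in DESeq2) and with both limma fits on TPM. The second passed in 15 of 18, and was lost among the libraries of short fragments (-0.46) and with both limma fits.

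Met, the receptor for HGF (chr6:17463800-17573980, plus strand), had 2993.5 and 2592.5 normalized counts in parental, 3159.3 and 3026.1 in B04 and 3340.2 and 3452.6 in B64. All clone libraries were above both parental ones, which were the least alike of the pairs. Met was 1.22-fold higher in B64 (log2 fold change 0.28, SE 0.08, adjusted p = 0.00424). B04 against parental gave 0.15 (95% interval -0.01 to 0.30, adjusted p = 0.185). The call in B64 passed in only 10 of 17 alternatives. Among others, it was lost without parental B (0.18), B64 A (0.31) or B64 B (0.26). It was lost as well with the fragment class as a term (0.34, adjusted p = 0.409 in DESeq2) and with both limma fits on TPM. B04 passed without parental A (0.25, adjusted p = 0.0414) and with effective lengths as an offset (0.34, 0.0149).

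The ErbB receptors that were detected showed no call. Erbb2, the family member with no known ligand (chr11:98412470-98437716, plus strand), had 686.8 and 712.7 normalized counts in parental, 730.6 and 729.8 in B04 and 610.5 and 659.2 in B64. Its log2 fold change was 0.06 in B04 (95% interval -0.17 to 0.29, adjusted p = 0.801) and -0.14 in B64 (-0.38 to 0.10, adjusted p = 0.525). The 3 pairs of libraries were ordered, B64 lowest and B04 highest, within a narrow range. Erbb3, which binds neuregulins and has a weak kinase (chr10:128567523-128589652, minus strand), was rare, with 36.3 and 36.5 normalized counts in parental, 73.0 and 68.2 in B04 and 56.6 and 55.7 in B64. The log2 fold change in B04 was 0.96 (SE 0.40, 95% interval 0.18 to 1.73, adjusted p = 0.0609 in DESeq2). It passed with edgeR's quasi-likelihood test (adjusted p = 0.00872, where 34.6% of genes did) and with only genes of at least 10 counts in at least 2 libraries (0.0339). B64 gave 0.63 (SE 0.40, adjusted p = 0.345). Capn5 (0.049) and 4930447F24Rik (0.05) had the patterns most like that of Erbb3. Exons of other genes covered at most 4.5% of the exonic bases of any of the 10 receptors, and no detected receptor shared more than 9 bases with a gene over 1.1 normalized counts.

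**Figure D2:**
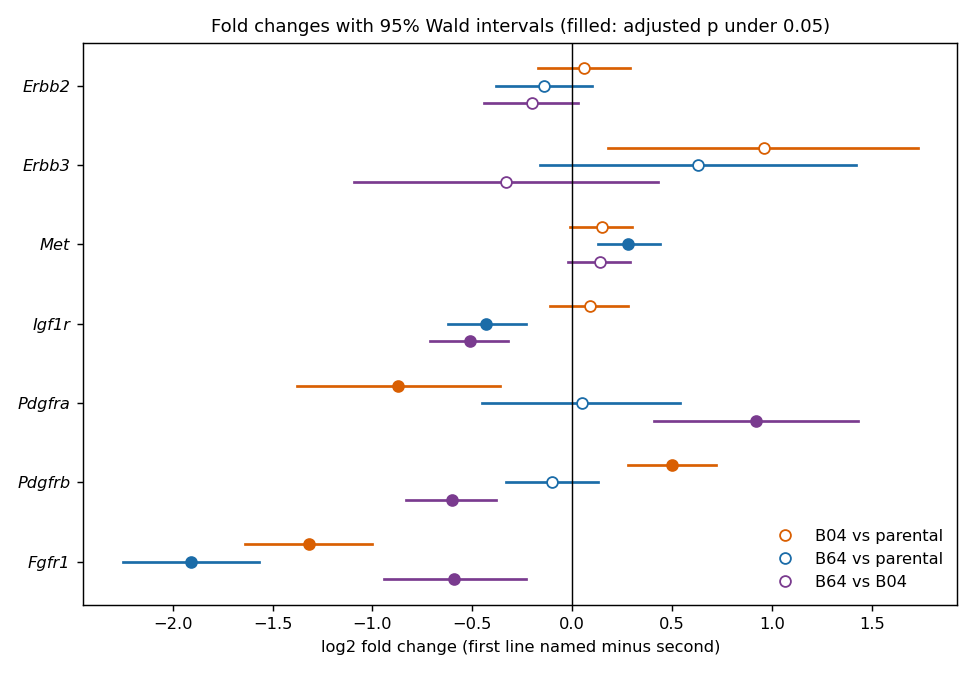
Log2 fold change (x axis) of the 7 detected receptors (y axis) in the 3 comparisons of lines, with 95% Wald intervals as lines. Filled points passed an adjusted p of 0.05 in DESeq2. Fgfr1 lies left of 0 in all 3, from -1.91 to -0.59, and the PDGF receptors lie on opposite sides in B04.

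Of the 44 other receptor tyrosine kinases looked up, 25 were at or under the floor and 15 were tested. In B04 4 rose and 3 fell against parental (46.7% called against 24.1% of all genes, median -0.05). In B64 none rose and 3 fell (20%, near the 16.3% of all genes, median -0.07). Epha2, an ephrin receptor, had 8994 and 9417 normalized counts in parental, 5223 and 5595 in B04 and 8161 and 8887 in B64, a fall in B04 (log2 fold change -0.77, SE 0.06, adjusted p = 1.23e-30). Axl, the receptor for Gas6 and the most abundant of those named (244.1 TPM in parental), fell in both clones, by 0.25 on the log2 scale in B04 (adjusted p = 5.91e-05) and by 0.44 in B64 (adjusted p = 4.53e-13). The pseudokinase Ptk7 fell by 0.90 and 1.12 on that scale (adjusted p = 4.83e-10 and 1.72e-14). The ephrin receptors Ephb3 (1.08, SE 0.21) and Ephb2 (0.34, SE 0.11) and the kinase Styk1 (0.92, SE 0.17) rose in B04 but gave -0.24, -0.23 and 0.28 in B64, none of these called. Tyro3, a relative of Axl, fell in B64 (-0.41, SE 0.14, adjusted p = 0.0192) and gave -0.17 in B04, the latter not called. On leaving out 1 library, the call of Ephb2 was lost without parental A, parental B, B04 A or B04 B (adjusted p up to 0.229), and that of Tyro3 with any library but B04 B left out (up to 0.362).

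Ligands of the 10 receptors were present although some of their receptors were at the floor. Of 39 ligand genes 17 were at or under the floor and 21 were tested against parental. In B04 6 fell and none rose (28.6% called, near the 24.1% of all genes, median -0.04), and in B64 5 rose and 2 fell (33.3% against 16.3%, median 0.03). Ereg (epiregulin) had 1272 and 1148 normalized counts in parental, 565 and 547 in B04 and 1180 and 1283 in B64, a fall in B04 (log2 fold change -1.12, SE 0.11, adjusted p = 2.3e-22). Areg (amphiregulin) had 488 normalized counts in parental A and in parental B, 307 and 294 in B04 and 1288 and 1123 in B64. It fell in B04 (-0.70, SE 0.14, adjusted p = 3.94e-06) and rose in B64 (1.30, SE 0.13, adjusted p = 8.76e-23). The clones thus lay on opposite sides of parental for this ligand of Egfr, while Egfr itself had at most 3 counts in each library. Hbegf, the heparin-binding ligand of Egfr, fell in B04 (-0.81, SE 0.12, adjusted p = 9.19e-10) and gave -0.18 in B64 (adjusted p = 0.351).

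Nrg1 (neuregulin), a ligand of Erbb3, had 718 and 619 normalized counts in parental, 410 and 438 in B04 and 249 and 255 in B64. It fell in both, by 0.66 on the log2 scale in B04 (SE 0.15, adjusted p = 9.19e-05, and 0.056 without parental A) and by 1.41 in B64 (SE 0.15, adjusted p = 1.02e-17), so its order of lines was that of Fgfr1. Pdgfa, the ligand of Pdgfra, had 580 and 626 in parental, 380 and 342 in B04 and 537 and 536 in B64, low in B04 as its receptor was (-0.74, SE 0.14, adjusted p = 2.47e-06). Fgf21, an endocrine FGF, had 110 and 90 normalized counts in parental, 88 and 116 in B04 and 12 and 13 in B64 (-2.99, SE 0.45, adjusted p = 1.23e-09). Its coreceptor Klb, named here after its values were seen, had at most 2 normalized counts. Vegfa, the ligand of Kdr, reached 114.2 TPM in parental, 113.3 in B04 and 131.9 in B64, and rose in B64 (0.26, SE 0.06, adjusted p = 0.000169). Hgf, the ligand of Met, and Igf1 and Igf2, the ligands of Igf1r, are named after their values were seen: Hgf had at most 1 normalized count in a library, Igf1 at most 10 and Igf2 at most 9. With the fragment class as a term, the ligands called in B64 were 1 up and 2 down, where 234 of 12855 genes tested rose and 106 fell.

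**Figure D3:**
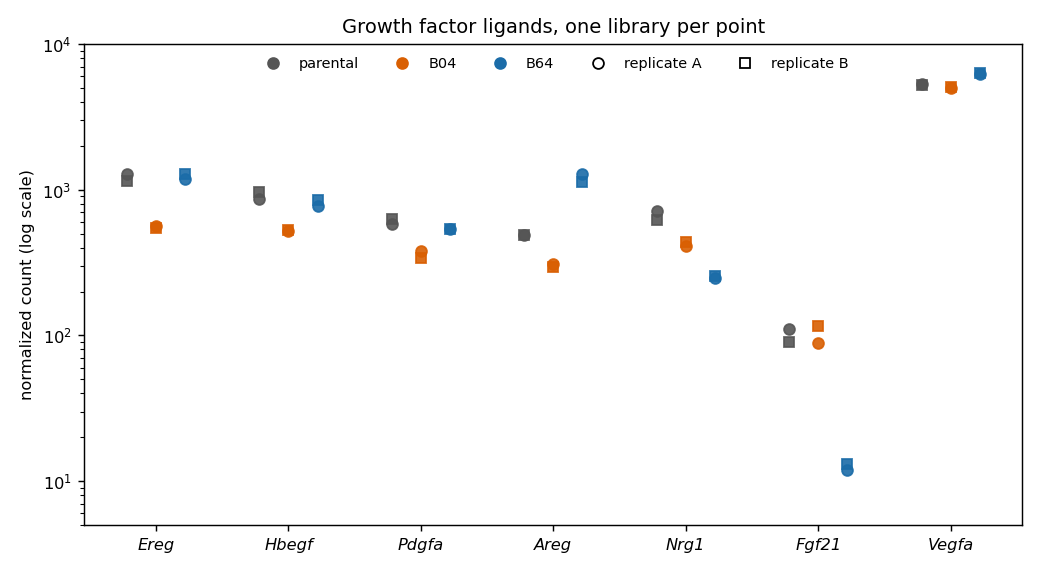
Normalized count (y axis, log scale) of the 7 named ligand genes (x axis), with a point for each library (circle A, square B) and a colour for each line. Ereg, Hbegf, Pdgfa and Areg are lowest in B04, Areg is highest in B64 at 1288 and 1123, and Fgf21 falls to 12 and 13 in B64.

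Of 25 coreceptors and ligand-binding proteins looked up, 17 were tested. In B04 3 rose and 6 fell (52.9% called against 24.1% of all genes, median -0.17), and in B64 3 rose and 5 fell (47.1% against 16.3%, median -0.08). With the fragment class as a term these were 1 up and 3 down in B04, and Igf2r alone, down, in B64. Over all genes that fit called 748 up and 848 down of 12492 in B04, and 234 up and 106 down of 12855 in B64. Igf2r, which takes up IGF2 without a kinase, had 1149 and 1014 normalized counts in parental, 218 and 194 in B04 and 253 and 211 in B64. It fell in both clones, with log2 fold changes of -2.39 (SE 0.15, adjusted p = 6.71e-52) and -2.22 (SE 0.15, adjusted p = 1.17e-44), the lowest of the named genes of this list. Cd44, a hyaluronan receptor that presents growth factors, fell as well (-0.70 in B04 and -0.27 in B64, SE 0.06 for both). Igfbp4, which holds insulin-like growth factors, rose in both (0.72 and 0.36, SE 0.07 for both), and its relative Igfbp6 rose in B64 (0.53, SE 0.09) and gave 0.02 in B04. Ltbp1, a TGF-beta binding protein that is counted in this list, fell by 0.38 and 0.28 on the log2 scale. The calls in B64 of Igfbp4 (0.34, adjusted p = 0.224), Igfbp6 (0.47, 0.127), Cd44 (-0.22, 0.646) and Ltbp1 (-0.19, 0.795) were lost with the fragment class as a term, and those of Cd44 and Ltbp1 also with both limma fits on TPM.

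Of 25 adaptors, 17 were tested, with 2 up and 3 down in B04 (29.4% called, median -0.12) and 1 up and 2 down in B64 (17.6%, median -0.17), near the 24.1% and 16.3% of all genes. Dok1, a docking protein that dampens RAS signalling, rose in both clones (log2 fold change 0.49 and 0.33, SE 0.10 for both). Ptpn11, the phosphatase SHP2, fell in both (-0.24 and -0.22, SE 0.06). Irs1, the main docking protein of Igf1r, had 443 and 374 normalized counts in parental, 378 and 388 in B04 and 245 and 237 in B64. It was low in B64 as Igf1r was (-0.76, SE 0.17, adjusted p = 0.000143, and 0.0685 without parental A) and gave -0.09 in B04. Its relative Irs2 rose in B04 (0.30, SE 0.10) and gave 0.01 in B64. Gab2 fell in B04 (-0.49, SE 0.14, adjusted p up to 0.092 without parental A or B04 A) and gave 0.27 in B64. Shc1 and Plcg1 were called in neither clone against parental, with -0.12 and 0.11 in B04 and 0.07 and -0.15 in B64. Leaving out 1 library ended the calls in B64 of Dok1 (adjusted p up to 0.441) and Ptpn11 (up to 0.11), each without parental A, B64 A or B64 B, and that of Irs2 in B04 (up to 0.286) without parental B, B04 A or B04 B.

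All 22 genes of the RAS-ERK and PI3K-AKT kinase list were tested. In B04 2 rose and 4 fell (median -0.04), and in B64 3 rose and none fell (median 0.01), so 27.3% and 13.6% were called, near the shares of all genes. Mapk3, which encodes ERK1, rose by 0.21 in B04 and 0.30 in B64 on the log2 scale (SE 0.06 for both). Nras fell in B04 (-0.32, SE 0.07, adjusted p = 1.24e-05), but its TPM moved the other way, from 91.1 in parental to 112.6, and effective lengths as an offset turned the sign (0.23). Pik3ca fell in B04 (-0.35, SE 0.12, adjusted p = 0.0133). The calls in B04 of Pik3ca (adjusted p up to 0.272) and Mapk3 (up to 0.137) were lost without parental A, B04 A or B04 B.

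Of 31 inhibitors of receptors and of ERK looked up, 27 were tested. In B04 12 fell and 3 rose (55.6% called against 24.1% of all genes, median -0.20). In B64 4 fell and 4 rose (29.6% against 16.3%, median -0.06). Errfi1, which binds and inhibits ErbB kinases, had 3451 and 3522 normalized counts in parental, 1426 and 1369 in B04 and 2235 and 2730 in B64. It fell in both, by 1.32 on the log2 scale (SE 0.09, adjusted p = 5.31e-44) and by 0.49 (SE 0.09, adjusted p = 2.01e-06). Dusp5, a nuclear ERK phosphatase, had 922 and 1134 in parental, 298 and 315 in B04 and 794 and 980 in B64 (-1.75 in B04, SE 0.15, adjusted p = 5.61e-31, and -0.21 in B64, adjusted p = 0.353). Its cytoplasmic relative Dusp6 fell in B04 (-0.66, SE 0.08) and in B64 (-0.21, SE 0.08, adjusted p up to 0.341 and lost whichever of the 6 libraries was left out), while Dusp4 rose in B64 (0.54, SE 0.06) and gave -0.07 in B04. Lrig1, a membrane inhibitor of ErbB receptors and Met, fell in B04 (-0.69, SE 0.08) and gave -0.10 in B64. Spry4 and Rasa1, inhibitors of RAS signalling, fell in B04 (-0.43 and -0.68) and rose in B64 (0.53 and 0.40). The adaptor Sh2b3 fell in both (-0.30 and -0.42, SE 0.09), the former lost without parental A, B04 A or B04 B (adjusted p up to 0.21). The call of Rasa1 in B64 was lost without B64 B (adjusted p = 0.1). With the fragment class as a term the inhibitors called in B04 were 8 down and 1 up, where 848 of 12492 genes tested fell and 748 rose. Fewer of the list were also called without B04 A, B04 B or parental A, as over all genes. The fragment class left 1 up and none down in B64, where 234 of 12855 genes tested rose and 106 fell. Fewer were called in B64 without B64 B too, as over all genes.

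Of 25 genes that ERK is known to induce, 24 were tested, and ERK activity itself was not measured. In B04 12 fell and 3 rose (62.5% called against 24.1% of all genes, median -0.34), and in B64 6 rose and 2 fell (33.3% against 16.3%, median 0.09). Dusp6, Spry2, Spry4 and Spred1 belong to this list and to the inhibitors, and Epha2 and Epha4 to this list and the other receptors, so the counts of these lists are not independent. Of the shared genes Dusp6, Spry2 (-0.48, SE 0.15, adjusted p = 0.00873), Spry4 and Epha2 were called lower in B04, while Spred1 gave 0.15 (adjusted p = 0.261) and Epha4 had no counts. Plaur, the urokinase receptor, had 2848 and 3128 normalized counts in parental, 1158 and 1310 in B04 and 2598 and 2642 in B64 (log2 fold change -1.28 in B04, SE 0.09, adjusted p = 4.53e-47). Fosl1, an AP-1 transcription factor, had 2418 and 2575, 1077 and 1117, and 2161 and 2181 (-1.19 in B04, SE 0.08, adjusted p = 1e-44). For both, B64 lay under parental by less (-0.19 and -0.20, adjusted p = 0.113 and 0.0645). Ier3 and Emp1, by contrast, fell in B04 (-0.29 and -0.30) and rose in B64 (0.61 and 0.29). Etv1, an ETS factor, rose in both (0.46 and 0.75, SE 0.16), although the call in B04 was lost without parental A, parental B, B04 A, B64 A or B64 B (adjusted p up to 0.425), and that of Ier3 in B04 whichever library was left out (up to 0.263). With the fragment class as a term 9 ERK-induced genes fell and none rose in B04, where 848 of 12492 genes tested fell and 748 rose. Fewer of the list were also called without B04 A, as over all genes. The fragment class left 2 up and none down in B64, where 234 of 12855 genes tested rose and 106 fell. Fewer were called in B64 without B64 A or B64 B too, as over all genes. Of the 25 calls in B64 against parental among the named pathway genes, those of Axl, Ptk7, Areg, Nrg1, Fgf21, Igf2r, Dusp4, Ier3 and Etv1 held with the fragment class as a term and the other 16 were lost. Messenger levels alone were measured, not receptor protein or phosphorylation.

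**Figure D4:**
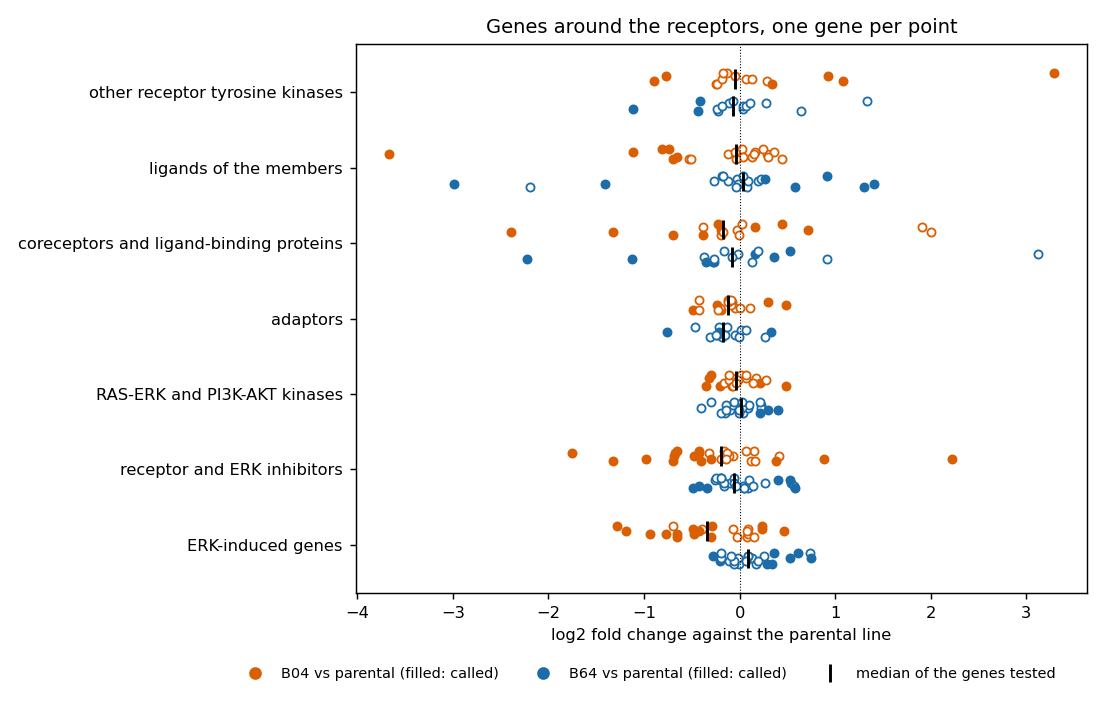
Log2 fold change against the parental line (x axis) of the tested genes of each list (y axis), 1 point per gene, for B04 and B64. Filled points were called and black bars mark the median. The ERK-induced genes of B04 sit mostly left of 0 (median -0.34) and those of B64 about 0 (median 0.09).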

How the data were processed

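RNA-seq of 6 CT26 libraries was analysed, grouped by line from the sample titles. Per the study's methods, the authors aligned paired reads to mm10 with STAR and ran RSEM. The annotation release is not given in the sources used here. The deposited tables give expected counts (estimated, since RSEM divides reads among genes), which were rounded to whole numbers, and TPM and FPKM values that the authors' RSEM scaled by effective length. FPKM was not used. Symbols came from GENCODE M21 (GRCm38) and matched 53620 of 53801 identifiers. The receptors and lists were chosen with earlier results of these data known, and 1 of 248 list genes had no match.

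DESeq2 1.42.0 (Wald test, all 6 libraries, line as the term, R 4.3.3) tested all genes at an adjusted p of 0.05 (Benjamini-Hochberg) after its independent filtering. In 3 simulated sets for B04 against parental (12995 to 14903 genes tested), 160 to 166 of 200 changed genes were recovered and 10 to 13 calls were false. Counts were drawn from the fitted means and spread, and only genes of a mean normalized count of at least 50 were changed. The 200 were far fewer than the 3181 genes called in the real comparison, so these rates need not carry over to it. No difference in fragment length was simulated, so these figures do not cover its effect on the real calls. Alternatives were edgeR 4.0.16, limma 3.58.1 on log2(TPM + 1) and log2(TPM + 0.1), TMM factors, other filters, the fragment class, an effective length offset, a stricter threshold, the replicate letter and each library left out. Depth was 19409204 to 23472012 expected counts. Named list genes were the 4 of smallest adjusted p per list and comparison among those whose mean normalized count reached 50, of which some are not reported here. Promoter sequences are RefSeq's.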

Additional observations from a re-analysis of the deposited data

Results flagged for a closer look

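The clones differed from each other in their shift from parental, by the direct test of B64 against B04 (DESeq2, adjusted p under 0.05 over all genes, 24.3% called), for 36 of the receptors and named list genes. The named list genes were picked from called genes, with this comparison among those used, so the 36 cannot be set against the 24.3%. Each value below is the log2 level of B64 minus that of B04. Among the receptors it was -0.51 for Igf1r, 0.92 for Pdgfra, -0.60 for Pdgfrb and -0.59 for Fgfr1. Among other receptor tyrosine kinases it was 0.66 for Epha2, -0.64 for Styk1, -1.33 for Ephb3, -0.18 for Axl and -0.58 for Ephb2. The ligands gave 1.15 for Ereg, 0.62 for Hbegf, 0.57 for Pdgfa, 2.0 for Areg, -0.75 for Nrg1, -3.03 for Fgf21 and 0.31 for Vegfa. Coreceptors and binding proteins gave 0.43 for Cd44, -0.36 for Igfbp4 and 0.50 for Igfbp6. Adaptors gave 0.77 for Gab2, -0.29 for Irs2, -0.67 for Irs1, 0.19 for Shc1 and -0.26 for Plcg1. The kinase list gave 0.26 for Nras. Leaving out 1 library ended the call for Irs2 (adjusted p up to 0.24), Plcg1 (0.217) and Shc1 (0.172) whether it was B04 A, B04 B, B64 A or B64 B, for Axl (0.294) without B04 A, B04 B or B64 A, for Styk1 (0.0839) without B04 B or B64 B, for Nras (0.0587) without B64 B and for Pdgfa (0.0514) without B04 B. The call for Pdgfra was lost without B04 B (0.114), B64 A (0.102) or B64 B (0.0525), and that for Fgfr1 on leaving out any of the clone libraries (0.0656 to 0.0984).

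The inhibitors gave 0.83 for Errfi1, 1.53 for Dusp5, 0.59 for Lrig1, 0.45 for Dusp6, 0.61 for Dusp4, 0.95 for Spry4 and 1.08 for Rasa1. The ERK-induced genes gave 1.09 for Plaur, 0.99 for Fosl1, 0.89 for Ier3 and 0.59 for Emp1. Over that list 13 of 24 genes were higher in B64 than in B04 and none was lower (median 0.43). Of the inhibitors 10 were higher and 3 lower (median 0.18), and of the ligands 9 were higher and 2 lower of 19 tested (median 0.31). Over all genes tested in this comparison, 13.1% were called higher and 11.1% lower. Col3a1 (-4.64), Cd68 (1.94), Krt20 (1.45) and Krt18 (0.57) also differed between the clones, and their part in these values was not tested.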

How the results depend on the processing

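Of 371 values of the 7 detected receptors under the alternatives, 322 kept direction and side of the threshold, 37 lost the call, 4 gained one and 8 changed sign. The sign changes were of values not called: Pdgfra, B64 against parental, was -0.43 with effective lengths as an offset, -0.30 and -0.42 with limma on log2(TPM + 1) and log2(TPM + 0.1), and -0.11 to 0.22 with a library left out (-0.01 without B64 A and -0.11 without parental B), and Met, B64 against B04, was -0.04, -0.07 and -0.07 in the first 3. Nras, B04 against parental, turned from a call to 0.23, 0.30 and 0.30 there. The receptors called in B64 against parental (3) were 1 with the fragment class as a term and 1 with each limma fit, and those in B64 against B04 (4) were 1 among libraries of one class, 2 with the offset and 1 with each limma fit. Leaving out a library gave 2 to 3, 2 to 3 and 2 to 4 receptors in B04 and B64 against parental and B64 against B04, the last being 2 without B04 B, B64 A or B64 B. Genes called in the 3 comparisons were 3181, 2157 and 3118. They were 1596, 340 and 1625 with the fragment class, 1133 and 1289 among libraries of one class (which leave no B64 against parental), 1764, 1079 and 1843 with log2(TPM + 1), 1754, 1050 and 1795 with log2(TPM + 0.1), and 1755 to 2577, 988 to 1772 and 1696 to 2758 with a library left out. Of the genes called, 66.2% and 66.7% were higher in B04 and B64 than in parental with limma on log2(TPM + 1), 46.4% and 54.3% with DESeq2, and 68.8% in B64 with the fragment class. A stricter threshold of 0.01 gave 2284, 1480 and 2243 genes. Deviations of libraries with the same letter correlated by 0.11, 0.01 and -0.05 for the 3 pairs of lines over 11996 genes. Whether libraries of one letter share a batch cannot be told from these values, as B04 A and B04 B also differ in fragment class. The fit with the replicate block called 2655, 1716 and 2638 genes and changed no receptor's call. Of 34, 25 and 32 calls of named list genes in the 3 comparisons, 19, 9 and 21 were kept in every alternative. The depth and 2 libraries per line leave receptors of few counts, such as Erbb3, with wide intervals.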
